A study of Bos taurus with 6 samples.

Results

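Germline genes, 10 in number, were followed in a bovine embryonic stem cell (bESC) line grown on either of 2 kinds of feeder layer. The set was chosen by name and by role, and it holds the germ cell regulators PRDM1, PRDM14 and NANOS3, the receptor KIT and its ligand KITLG, the piRNA pathway genes MAEL, PIWIL2 and DDX4, the RNA-binding gene DAZL, and the oocyte linker histone H1-8. Of these 10 genes, 9 were found by symbol and Entrez ID among the 19163 genes of the count table, and NANOS3 was not analysed here. PRDM14 and KIT were the well-read members, PRDM1 was read less, MAEL, KITLG and H1-8 were rare, and PIWIL2, DDX4 and DAZL had at most 3 counts in any library.

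RNA-seq was performed on line F7, a Holstein Friesian line of pluripotent cells derived from embryos made by in vitro fertilization. MC-F7 cells grew on living mouse embryonic fibroblasts (MEFs) whose division had been stopped with mitomycin C, and MT-F7 cells grew on MEFs fixed with methanol. Both groups had been cultured for 15 passages and shared the CTFR medium, which holds FGF and the Wnt inhibitor IWR1, and each group had 3 libraries. The medium was changed daily for MC-F7 but only on alternate days for MT-F7, so feeder type and feeding interval cannot be told apart. Before RNA extraction the dissociated cells were left on gelatin and the floating cells were collected, so feeder cells that did not settle could remain. The paper reports a higher rate of alignment to the bovine genome in MT-F7 than in MC-F7. It proposes that feeder contamination was lower in MT-F7. The part of this in the results below was not tested. Both groups come from 1 line, and no source used here says that the libraries of a group were separate cultures, so the p-values measure only the spread between these libraries, which may be technical.

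In mammals, primordial germ cells are set aside early in the embryo through PRDM1, PRDM14 and TFAP2C, and they depend on KIT and its ligand for survival and migration. Once they have reached the gonad they switch on DAZL and DDX4, and germ cells make piRNAs, small RNAs that guide PIWI proteins to transposon transcripts and, in the male line, to transposon DNA for methylation. Many of these later germline genes are kept silent in pluripotent and somatic cells by promoter methylation and by a variant Polycomb complex called PRC1.6, and H1-8 is the linker histone that the oocyte stores for early development.

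The libraries held 21958386 to 24933430 counts, so 3 counts, taken here as the detection floor, equalled 0.12 to 0.137 CPM (counts scaled to library size). The F7 identity was checked with 8 pluripotency markers, which were present in all 6 libraries and summed to 1375 to 2059 CPM in MC-F7 and 743 to 860 CPM in MT-F7. The 13 fibroblast markers summed to 328 to 389 CPM in MC-F7 and 492 to 534 CPM in MT-F7, none was at the floor in all libraries, 4 rose and TWIST2 fell in MT-F7. The part of these differences in any result below was not tested. Mitochondrial genes took 16.3% to 28.3% of the counts, and replicate 3 had the highest share in both groups (28.3% in MC-F7 and 27.9% in MT-F7).

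In bulk RNA a gene read less often in a culture can have fewer expressing cells or less RNA in each cell, and these cannot be told apart here. With edgeR's quasi-likelihood test and Benjamini-Hochberg adjustment over the 13001 genes that passed the filter on low counts, 3 of the 5 tested members differed between MT-F7 and MC-F7 at an adjusted p under 0.05, against 23.2% of all tested genes. MAEL rose in MT-F7, and KIT and H1-8 fell. MAEL passed the filter only through its MT-F7 libraries and H1-8 only through its MC-F7 libraries, so the share of members called carries no weight beyond the genes themselves. Of all tested genes, 11.9% rose and 11.3% fell. With limma on log2(TPM + 1), 67.2% of the calls were higher in MT-F7, against 51.5% in the count test, and the median of all genes stood at 0.05 on that scale against -0.0026 for the count test. The deposited TPM kept library size, and each MT-F7 library held more counts than each MC-F7 library. The part of this in the limma calls was not tested. TPM means below give levels between genes and do not compare the groups.

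**Figure D1:**
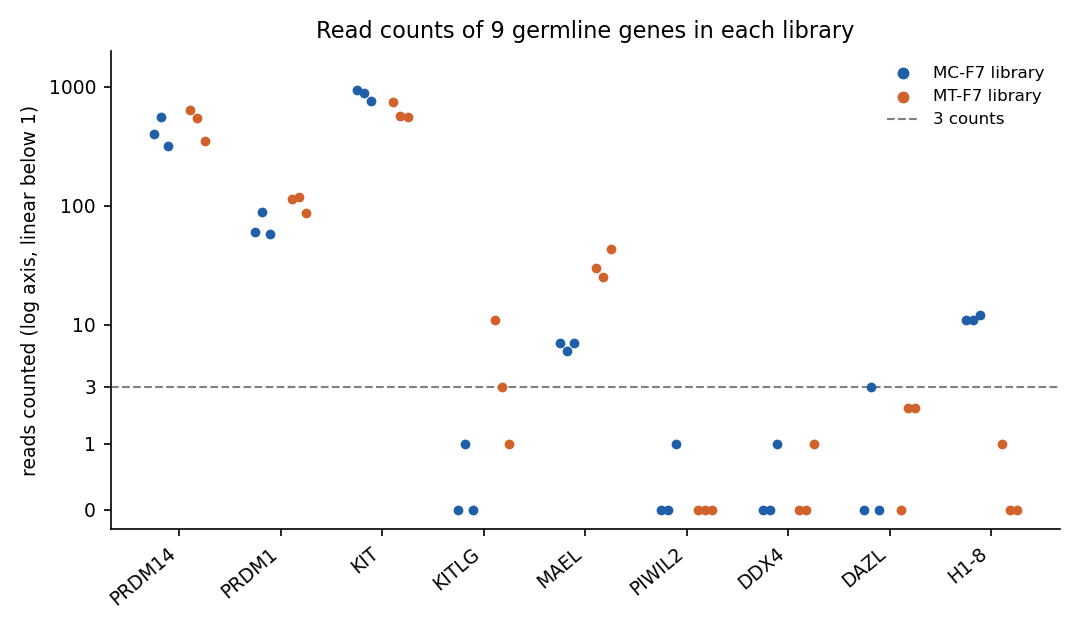
Reads counted for 9 germline genes (log axis, linear below 1); each point is 1 library, MC-F7 in blue and MT-F7 in orange, and the dashed line marks 3 counts. PRDM14 and KIT lie above 300 counts in every library, MAEL is higher in MT-F7 and H1-8 in MC-F7, most KITLG reads lie in MT-F7 replicate 1, and PIWIL2, DDX4 and DAZL stay at or under the line.

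PRDM14 (Entrez 100140032), a transcriptional regulator that germ cell precursors share with pluripotent cells, had the highest level per transcript length of the 9 genes. Its deposited TPM averaged 2.23 in MC-F7 and 2.71 in MT-F7, at percentile 74.9 of all genes by mean TPM. The MC-F7 libraries held 396, 552 and 314 counts of PRDM14 (17.5, 22.9 and 14.7 CPM), and the MT-F7 libraries held 640, 545 and 346 (25.5, 21.0 and 14.7 CPM). The groups overlapped, and replicate 3 was the lowest library in both. The means were 18.4 ± 4.16 and 20.4 ± 5.43 CPM (SD, n = 3 each), the log2 fold change was 0.15 (SE 0.223), and the difference did not pass the test (adjusted p = 0.67, edgeR). Without MT-F7 replicate 1 the value was -0.045 (adjusted p = 0.93).

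PRDM1 (Entrez 538384), the repressor of the somatic program in germ cell precursors, was far lower per length, with 0.119 TPM in MC-F7 and 0.184 TPM in MT-F7. The MC-F7 libraries held 60, 89 and 58 reads of it, and the MT-F7 libraries 114, 118 and 87. The lowest MT-F7 library, replicate 3 with 3.693 CPM, lay just above the highest MC-F7 library, replicate 2 with 3.688 CPM, so the groups barely failed to overlap. Groups that do not overlap are common in these data, with 40% of all tested genes. The means were 3.02 ± 0.582 and 4.26 ± 0.494 CPM, and the log2 fold change of 0.50 (SE 0.254) did not pass the test (adjusted p = 0.18, edgeR), nor did it with any library left out.

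KIT (Entrez 280832), the receptor tyrosine kinase that germ cell precursors carry on their surface, was counted 940, 879 and 751 times in the MC-F7 libraries and 746, 568 and 556 times in the MT-F7 libraries. Scaled for depth these were 41.6, 36.4 and 35.1 CPM in MC-F7 and 29.7, 21.9 and 23.6 CPM in MT-F7, and every MT-F7 library lay below every MC-F7 library. KIT fell from 37.7 ± 3.41 to 25.1 ± 4.09 CPM, 1.5-fold lower, with a log2 fold change of -0.59 (SE 0.167, adjusted p = 0.022, edgeR). The call was lost without MC-F7 replicate 1 (adjusted p = 0.071), without MC-F7 replicate 2 (0.070) and without MT-F7 replicate 2 (0.105), with log2 fold changes of -0.51, -0.61 and -0.50. It was also lost with limma on deposited TPM, from which library size was not removed (adjusted p of 0.115 with a pseudocount of 1, 0.108 with 0.1 and 0.106 with a mean TPM of at least 1). By length KIT averaged 1.52 TPM in MC-F7 and 1.10 TPM in MT-F7.

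KITLG (Entrez 281885), the membrane-bound or secreted ligand of KIT, was close to the floor. Its counts were 0, 1 and 0 on living feeders against 11, 3 and 1 on fixed feeders, so a single library, MT-F7 replicate 1, held most of its reads. Only that library was above the level of the filter, and KITLG did not enter the test. Its 15 counts against 1 gave a ratio of 13.7 with a 95% exact interval of 2.11 to 577, which covers counting error only. In the test over all genes with at least 1 count, where 19.2% were called and 9.99% were called higher, the difference was not called (adjusted p = 0.13, edgeR). KITLG averaged 0.00127 TPM in MC-F7 and 0.019 TPM in MT-F7, so in both groups the receptor was read far more than its ligand.

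MAEL (Entrez 541073), a germ cell protein needed for piRNA production and transposon silencing, was the member that rose. The 3 libraries from living feeders held 7, 6 and 7 reads of MAEL, those from fixed feeders 30, 25 and 43, and the lowest MT-F7 library was well above the highest MC-F7 library. Its level rose from 0.295 ± 0.0412 to 1.33 ± 0.445 CPM, 4.50-fold higher, with a log2 fold change of 2.15 (SE 0.473, adjusted p = 0.0056, edgeR). Pooled, 98 counts against 20 gave a ratio of 4.48 with a 95% counting interval of 2.75 to 7.65. The call held with each library left out, with log2 fold changes of 1.85 to 2.34 and adjusted p-values of 0.0097 to 0.033. MAEL entered the test only through its MT-F7 libraries, where it was high. In the test over all genes with at least 1 count, the adjusted p was 0.0057 (edgeR). MAEL stayed a rare transcript, with 0.0358 TPM in MC-F7 and 0.175 TPM in MT-F7.

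The other members that act with piRNAs or in gonadal germ cells were at the floor. PIWIL2 (Entrez 537068), a PIWI protein that binds piRNAs, had 1 count in MC-F7 replicate 3 and 0 in the other libraries. DDX4 (Entrez 493725), the RNA helicase known as VASA, had 1 count in replicate 3 of each group and 0 elsewhere. DAZL (Entrez 530116), which binds the messages of germ cells and promotes their translation, was read 0, 3 and 0 times on living feeders and 0, 2 and 2 times on fixed feeders. No difference between the groups was detectable at this depth for these 3 genes, and a library with 0 counts allows a level of up to 0.12 to 0.137 CPM. Of all 19163 genes, 21.2% were at or under 3 counts in all 6 libraries.

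H1-8 (Entrez 527400), the oocyte linker histone, went the opposite way to MAEL. The MC-F7 libraries held 11, 11 and 12 counts and the MT-F7 libraries held 1, 0 and 0. The level fell from 0.501 ± 0.0541 to 0.0133 ± 0.023 CPM (log2 fold change -4.76, SE 0.944, adjusted p = 0.0031, edgeR). With 34 counts against 1, the MC-F7 level was 37.2 times the MT-F7 level, with a 95% counting interval of 6.24 to 1512. The call held with each library left out, with fitted values of -6.58 to -4.29, and the lower end, reached without MT-F7 replicate 1, is set against libraries that were all at 0 and is no bound. H1-8 entered the test only through its MC-F7 libraries, where it was high. In the test over all genes with at least 1 count, the adjusted p was 0.0060 (edgeR).

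**Figure D2:**
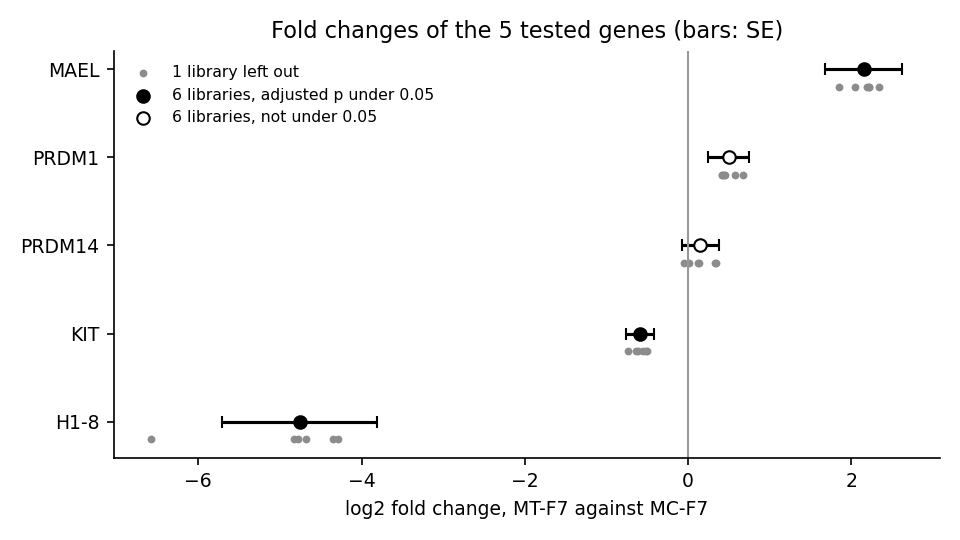
Log2 fold change of MT-F7 against MC-F7 for the 5 tested members; black points show the fit of 6 libraries with its SE, filled where the adjusted p was under 0.05, and grey points show the fits with 1 library left out. MAEL (2.15), KIT (-0.59) and H1-8 (-4.76) are filled, and for PRDM14 the value without MT-F7 replicate 1 crosses 0.

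**Figure D3:**
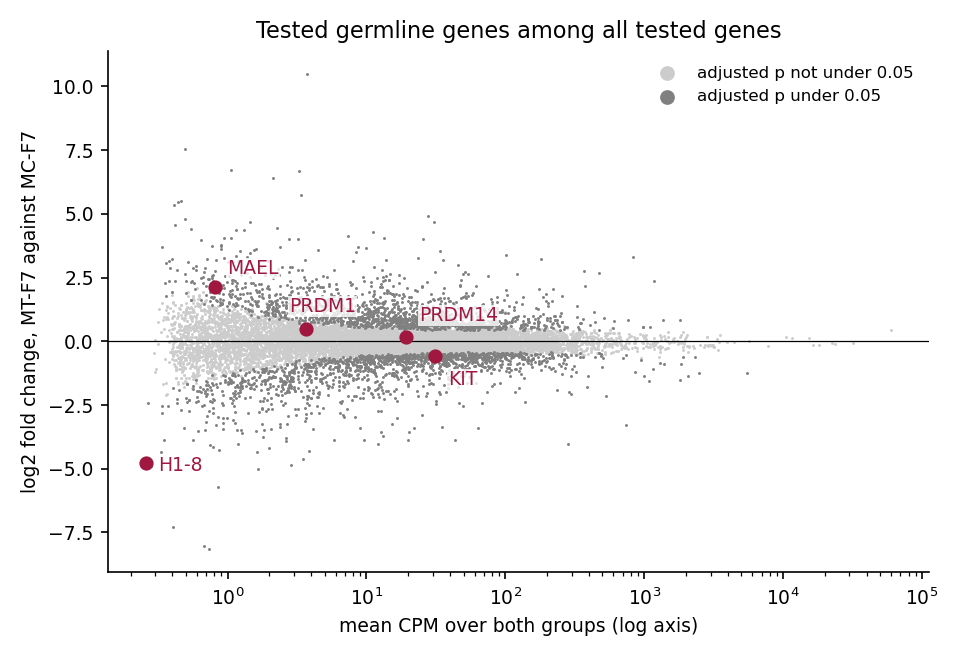
Log2 fold change against mean CPM over both groups (log axis) for all 13001 tested genes, with genes at an adjusted p under 0.05 in dark grey and the 5 tested members in red. MAEL and H1-8 lie at the low end of the measured range, at about 1 CPM or less, while KIT and PRDM14 lie near the middle of the cloud.

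Within each library, PRDM14 and KIT together made up 87.7% to 94.2% of the summed TPM of the 9 members. The ratio of PRDM14 to KIT by TPM was 1.26, 1.88 and 1.25 on living feeders against 2.57, 2.88 and 1.87 on fixed feeders, and the groups overlapped by a narrow margin, MC-F7 replicate 2 against MT-F7 replicate 3. POU5F1, the core pluripotency factor, exceeded PRDM14 by 132, 90.4 and 89.0 times by TPM in MC-F7 and by 34.6, 39.4 and 52.4 times in MT-F7, with no overlap. POU5F1 itself fell from 1195 to 522 CPM (log2 fold change -1.19, adjusted p = 0.0012, edgeR), while PRDM14 did not pass the test. By mean TPM over the libraries the order of the members was PRDM14, KIT, PRDM1, MAEL, H1-8, KITLG, DAZL, DDX4 and PIWIL2, at percentiles 74.9, 65.1, 40.9, 38.0, 31.8, 22.9, 18.9, 16.0 and 14.9 of all genes. The last 3 were at the floor, so their order has no meaning.

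In the wider piRNA pathway, 4 genes were called higher in MT-F7 (GPAT2, MAEL, PIWIL1 and HENMT1), against 11.9% of all tested genes, and 0 lower. Of 26 listed genes, 23 were in the table, 8 had at most 3 counts in every library (21.2% of all genes did) and 9 were tested. GPAT2 and MAEL passed the filter only through MT-F7, where they were high. The count of 4 and the median log2 fold change of 0.69 over the 9 tested genes therefore depend on them. Over the other 7 genes, 2 were called higher and 0 lower, and the median was -0.15. In the test over all genes with at least 1 count, 3 of 21 were called higher, against 9.99% of all genes in that test. At an unadjusted p under 0.05, 5 were higher and 1 was lower in edgeR, while DESeq2 called 4 higher and 0 lower and limma on log2(TPM + 1) 3 and 0. GPAT2, a mitochondrial outer membrane protein of the germline that takes part in piRNA production, was counted 1, 3 and 5 times in MC-F7 libraries and 32, 27 and 16 times in MT-F7 libraries. Its level rose from 0.134 ± 0.0951 to 0.999 ± 0.3 CPM (log2 fold change 2.87, SE 0.612, adjusted p = 0.0048, edgeR), and like MAEL it passed the filter only through MT-F7. PIWIL1, a PIWI protein of germ cells, had 10, 8 and 6 counts against 30, 22 and 22 and rose from 0.351 to 0.993 CPM (log2 fold change 1.48, adjusted p = 0.035). HENMT1, which methylates the 3′ ends of piRNAs, rose from 6.45 ± 0.785 to 10.4 ± 0.88 CPM (log2 fold change 0.69, adjusted p = 0.020).

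The calls of GPAT2 and MAEL held with every library left out. That of HENMT1 was lost without MC-F7 replicate 2, MT-F7 replicate 1 or MT-F7 replicate 2, with adjusted p-values of 0.115, 0.060 and 0.086. Of the fits with 1 library left out, PIWIL1 kept its call only in that without MC-F7 replicate 1, and it lost it in the test over all genes with at least 1 count (adjusted p = 0.060). Its adjusted p was 0.119 and 0.089 without MC-F7 replicates 2 and 3, and 0.139, 0.070 and 0.064 without MT-F7 replicates 1, 2 and 3. PNLDC1, which trims the 3′ ends of piRNAs, had 2.30, 4.35 and 3.79 CPM in MC-F7 libraries and 2.07, 1.97 and 2.08 CPM in MT-F7 libraries. This gene, chosen after its values were seen, was the one lower at an unadjusted p under 0.05 (log2 fold change -0.77, adjusted p = 0.084, edgeR), and it was called lower without MC-F7 replicate 1 (-0.99, adjusted p = 0.027). SPOCD1, a partner of nuclear piRNA-directed methylation with 11.7 and 9.54 CPM, TDRD7, a Tudor protein of germ granules with 6.74 and 6.08 CPM, and MYBL1, the transcription factor of piRNA clusters with 1.64 and 2.81 CPM, did not pass the test (log2 fold changes of -0.29, -0.15 and 0.78). PIWIL3, a close relative of PIWIL2, was at the floor in all libraries.

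Of the primordial germ cell list, 6 of 10 tested genes fell in MT-F7, against 11.3% of all tested genes, and none rose. The list has 17 genes, of which 14 were in the table, and the median log2 fold change of the tested genes was -0.65. PDPN, a surface glycoprotein used to sort germ cell precursors and also made by fibroblasts, fell from 89.0 ± 21.7 to 46.0 ± 10.9 CPM (log2 fold change -0.95, SE 0.214, adjusted p = 0.00645, edgeR). LIN28A, which blocks the maturation of let-7 microRNAs, fell from 27.4 to 15.2 CPM (adjusted p = 0.021), and EOMES, a T-box factor of early mesoderm and endoderm, fell from 5.49 to 3.16 CPM (0.021). DND1, which guards germ cell messages against degradation, fell from 25.0 to 14.8 CPM (0.025), and SOX15, a SOX factor of pluripotent and early germ cells, fell from 20.4 to 12.5 CPM (0.023). KIT was the sixth, and TFAP2C did not pass the test, with 1.22 and 1.21 CPM.

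LIN28A is also among the pluripotency markers, and 7 of the 8 measured pluripotency markers, POU5F1, NANOG and TDGF1 among them, fell in MT-F7. The part of the pluripotency markers in these counts was not tested. PDPN kept its call with each library left out. The number that fell was 1 without MC-F7 replicate 2 and without MT-F7 replicate 2, 3 without MC-F7 replicate 1 and without MT-F7 replicate 1, and 5 or 6 without replicate 3 of either group. The lost calls had adjusted p-values of 0.052 to 0.110 and kept their direction. DND1 was also lost with limma on log2(TPM + 1) (0.097), and EOMES with log2(TPM + 0.1) (0.054).

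Genes of gonadal germ cells and meiosis went in both directions. Of 30 genes, 28 were in the table, 6 were at the floor and 12 were tested, of which 3 rose and 3 fell, with a median of 0.30. Of all tested genes, 11.9% rose and 11.3% fell. MAEL was 1 of the 3 that rose, and it passed the filter only through MT-F7. RAD21L1, which was not called, passed only through MC-F7. Over the 10 genes that passed in both groups, 2 rose and 3 fell, and the median was also 0.30. SYCP3 and SYCP2 both build the lateral elements of the synaptonemal complex, which joins paired chromosomes in meiosis. SYCP3 fell from 3.03 ± 0.778 to 0.583 ± 0.216 CPM (log2 fold change -2.36, SE 0.386, adjusted p = 8.0e-04, edgeR), whereas SYCP2 rose from 1.40 ± 0.343 to 3.16 ± 0.501 CPM (1.18, SE 0.313, adjusted p = 0.016). No library of either group reached the other group's range for these 2 genes. SYCE2, of the central element of the same complex, rose from 7.04 to 12.1 CPM (log2 fold change 0.79, adjusted p = 0.0096).

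DMC1, the meiotic recombinase, fell from 9.54 ± 1.41 to 3.24 ± 0.714 CPM (log2 fold change -1.55, adjusted p = 4.5e-04, edgeR). TEX11, an X-linked gene of meiotic recombination, had 42.4, 53.6 and 79.0 CPM in MC-F7 and 15.7, 15.9 and 23.5 CPM in MT-F7 (log2 fold change -1.67, adjusted p = 2.9e-04). STAG3 and REC8, both meiotic cohesin subunits, and MSH5, a meiotic mismatch repair homolog, did not pass the test, with means of 21.7 against 31.4, 10.5 against 15.2 and 18.2 against 17.8 CPM. STAG3 was called higher without MC-F7 replicate 3 (0.98, adjusted p = 0.011). With a replicate block, STAG3 (0.58, adjusted p = 0.0044, edgeR) and REC8 (0.50, adjusted p = 0.017) were called higher, and the list had 5 higher and 3 lower calls. The call of SYCP2 was lost without MC-F7 replicate 2 and without MT-F7 replicate 1 (adjusted p-values of 0.0501 and 0.072). The other 5 calls of the test without a block, that of MAEL among them, held with each library left out.

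Oocyte genes that could be tested were lower or did not pass. Of 25 genes, 24 were in the table, 8 were at the floor and 10 were tested. None rose and 3 fell, against 11.9% and 11.3% of all tested genes. The median was -0.46, also without H1-8, which passed the filter only through MC-F7. NPM2, the oocyte chaperone that loads and unloads histones, was counted 73, 84 and 97 times in MC-F7 libraries and 18, 1 and 6 times in MT-F7 libraries. It fell from 3.75 ± 0.693 to 0.337 ± 0.346 CPM, 11.1-fold lower (log2 fold change -3.46, SE 0.554, adjusted p = 6.9e-04, edgeR). PADI6, an enzyme-like protein of the oocyte's cytoplasmic lattices, fell from 32.9 ± 0.947 to 17.3 ± 4.05 CPM (log2 fold change -0.93, adjusted p = 0.0030). H1-8 was the third, and all 3 kept their calls with each library left out. KHDC3L, TLE6 and ZAR1L, other maternal genes with 1.11, 1.83 and 1.28 CPM in MC-F7 and 1.02, 1.35 and 0.934 CPM in MT-F7, did not pass the test.

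**Figure D4:**
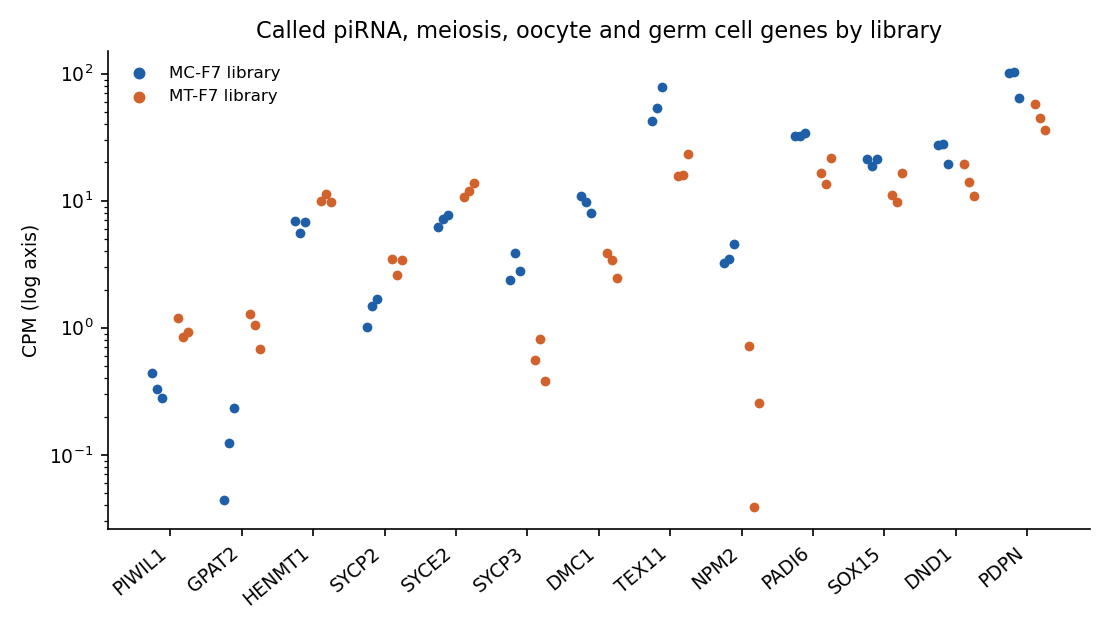
CPM (log axis) of 13 called piRNA, meiosis, oocyte and primordial germ cell genes that are not members; each point is 1 library, MC-F7 in blue and MT-F7 in orange. PIWIL1, GPAT2, HENMT1, SYCP2 and SYCE2 are higher in MT-F7, the other 8 are lower, and NPM2 spreads most among the MT-F7 libraries.

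The repressors that hold germline genes silent were all measured, and 5 of 23 were called (21.7% of the list, against 23.2% of all genes), with a median of -0.09. YAF2, a subunit of variant Polycomb complexes, rose from 2.94 ± 0.177 to 10.1 ± 2.16 CPM (log2 fold change 1.77, SE 0.227, adjusted p = 1.3e-04, edgeR), while RYBP, its paralog, fell from 10.2 ± 0.353 to 6.01 ± 0.505 CPM (-0.77, SE 0.185, adjusted p = 0.0092). UHRF1, which brings DNMT1 to newly copied DNA, rose from 113 ± 6.47 to 292 ± 27.9 CPM (1.37), and DNMT1, the maintenance methyltransferase, rose from 54.9 to 84.4 CPM (0.62). DNMT3B, which places new methyl groups, fell from 448 ± 37.2 to 195 ± 33.9 CPM (-1.20). HDAC2, EHMT2 and CBX3, the most abundant of the others per length, did not pass the test, with log2 fold changes of -0.09, -0.11 and -0.16. The call of RYBP was lost without MC-F7 replicate 2 or MT-F7 replicate 1 (adjusted p = 0.051 for each). PCGF6, chosen after its values were seen, did not pass the test but was called lower by DESeq2 (-0.53, adjusted p = 0.047). In edgeR it was called lower without MC-F7 replicate 3 (-0.64, 0.033) and without MT-F7 replicate 2 (-0.72, 0.033), but with no other single library left out. With a replicate block the list had 5 higher and 4 lower calls, PCGF6 among the lower (-0.55, adjusted p = 0.0026, edgeR).

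Beside the receptor and its ligand, the KIT signaling list held 16 genes, all tested, of which 5 rose and 2 fell (median 0.20). Of all tested genes, 11.9% rose and 11.3% fell. PTPN6, the phosphatase that damps KIT signaling, rose from 15.9 ± 0.953 to 36.7 ± 5.4 CPM (log2 fold change 1.20, adjusted p = 2.3e-04, edgeR), and PIK3R1, the regulatory subunit of PI3-kinase, rose from 4.93 to 10.2 CPM (1.04). LYN and FYN, SRC-family kinases, rose from 14.2 to 25.3 and from 82.2 to 122 CPM, and the adaptor SHC1 rose from 193 to 293 CPM. SH2B3, an inhibitory adaptor, fell from 2.71 to 0.95 CPM (-1.51), and SPRED1, an inhibitor of the RAS pathway, fell from 46.7 to 29.5 CPM (-0.66). The adaptors GRB2 and SH2B2 did not pass the test. With MC-F7 replicate 2 left out, the list, with KIT among its calls, had 3 higher and 1 lower call in place of 5 and 3, with MT-F7 replicate 2 left out 4 and 1, and with MC-F7 replicate 1 left out 5 and 1; the other fits that left out a library gave 5 and 2. The lost calls had adjusted p-values of 0.0524 to 0.123, and SPRED1 was also lost with limma on log2(TPM + 1) (0.161).

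Relatives of the single members were measured as well. Of 10 linker histone genes, 4 were in the table and 3 were tested. H1-4, a replication-dependent H1, fell from 3.04 ± 0.744 to 0.828 ± 0.2 CPM (log2 fold change -1.87, adjusted p = 0.0021, edgeR), beside H1-8, and H1-10, the highest of them per length at 347 and 361 TPM, did not pass the test (-0.08). Of 15 PRDM family genes, all in the table, 11 were tested and PRDM8 alone was called (9.09% of those tested, against 23.2% of all genes). With all libraries and no replicate block, 0 were lower in edgeR (0 also at an unadjusted p under 0.05), DESeq2 or limma on log2(TPM + 1). With a replicate block in edgeR, 2 were higher and 1, PRDM4, was lower (-0.38, adjusted p = 0.028). PRDM8, known from neurons and retina, rose from 0.202 ± 0.199 to 1.43 ± 0.341 CPM (2.78, adjusted p = 0.0080) and passed the filter only through MT-F7. PRDM4 and PRDM15 did not pass the test, but PRDM4 was called lower without MT-F7 replicate 3 (-0.61, adjusted p = 0.039), and PRDM2, chosen after its values were seen, was called higher without MC-F7 replicate 3 (0.83, adjusted p = 0.010).

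In the family of NANOS, Pumilio and DAZ RNA-binding genes, 11 of 12 were in the table and 8 were tested. None rose and 3 fell, against 11.9% and 11.3% of all tested genes (median -0.41). NANOS1, the relative of NANOS3 that could be measured, fell from 3.21 ± 0.558 to 1.20 ± 0.374 CPM (log2 fold change -1.41, SE 0.33, adjusted p = 0.0078, edgeR). DAZAP1, which binds DAZ proteins and is widely expressed, fell from 194 ± 5.61 to 112 ± 10.5 CPM (-0.79, adjusted p = 0.0017), and DND1 was the other. TIAL1 and PUM3, with 125 and 39.4 CPM in MC-F7 and 94.0 and 29.8 CPM in MT-F7, did not pass the test. With a replicate block, both were called lower (adjusted p = 0.022 and 0.018, edgeR), and the list had 5 lower calls. That fit called 4674 of all genes in place of 3016. Over the 9 lists together, 97 of 149 genes in the table were tested and 34 were called (35.1%), 15 higher and 19 lower, against 23.2% of all tested genes. The lists were chosen with earlier results of these data known. MAEL, GPAT2, PRDM8 and H1-8, all among the calls, passed the filter only through the group where they were high. The share called therefore carries no weight beyond the genes themselves. In the primordial germ cell, oocyte, linker histone and NANOS lists, 0 genes were higher, and that count was also 0 at an unadjusted p under 0.05 in edgeR and in the calls of DESeq2 and of limma on log2(TPM + 1). They held 10, 10, 3 and 8 tested genes. Of all tested genes 11.9% were called higher, so lists this small can hold 0 without departing from that share. They were singled out by this count, and some share genes, such as DND1 and H1-8.

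**Figure D5:**
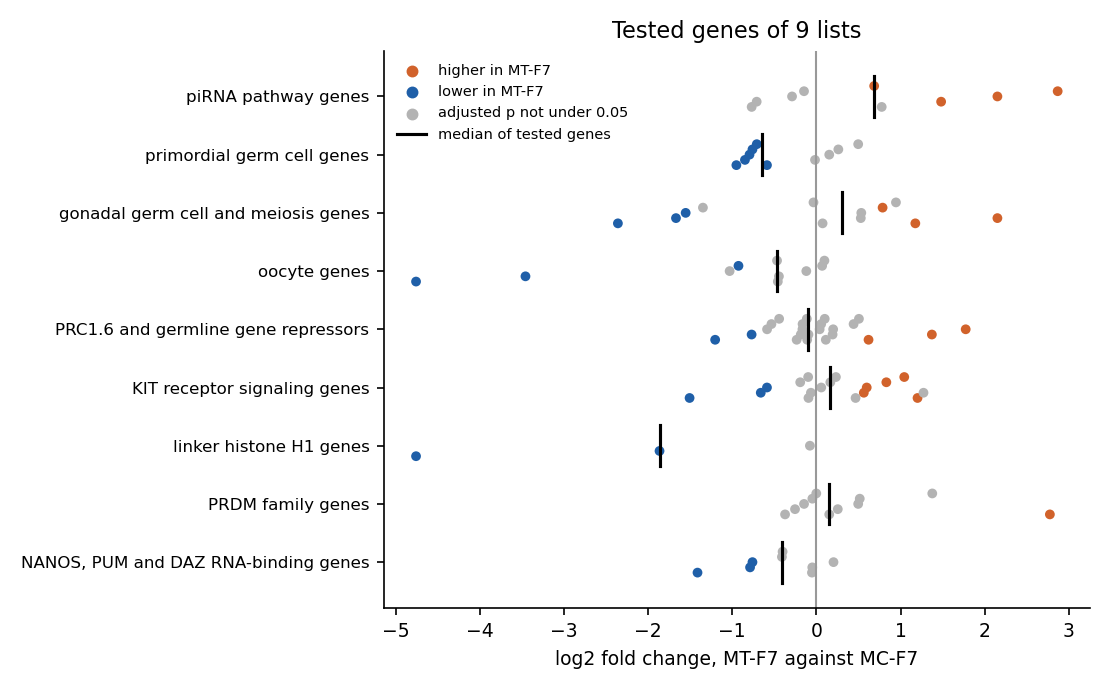
Log2 fold change of MT-F7 against MC-F7 for the tested genes of 9 lists, 1 point a gene (orange higher, blue lower, grey not called), with black bars at the list medians. The piRNA list has 4 higher and 0 lower calls and a median of 0.69. Without MAEL and GPAT2, which passed the filter only through MT-F7, it has 2 higher and 0 lower calls and a median of -0.15. The primordial germ cell list has 0 higher and 6 lower calls and a median of -0.65.

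Markers of other cells that could carry these genes were set beside them. KIT is also the receptor of mast cells and pigment cells, and KITLG is made by the granulosa and Sertoli cells that surround germ cells in the gonad. Of 8 mast cell and pigment cell markers, CPA3, MS4A2 and TYR were at the floor in all libraries, and their sum was 5.14 to 5.79 CPM in MC-F7 and 40.7 to 48.1 CPM in MT-F7, carried by PMEL, a pigment cell gene, which rose from 4.4 to 42.7 CPM (log2 fold change 3.28, adjusted p = 3.5e-07, edgeR). Of 8 granulosa and Sertoli cell markers, FSHR and CYP19A1 were at the floor, SOX9 rose from 3.17 to 5.89 CPM (adjusted p = 0.025; 0.070, 0.090 and 0.086 without MC-F7 replicate 1, MT-F7 replicate 1 and MT-F7 replicate 2), and the sums were 14.4 to 20.6 CPM in MC-F7 and 15.5 to 20.2 CPM in MT-F7. The part of such markers in the values of KIT and KITLG was not tested.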

How the data were processed

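The authors aligned the reads with HISAT2 2.0.5 and counted them per gene with featureCounts 1.5.0-p3, and they deposited raw counts by Entrez ID and a table of TPM by Ensembl ID and symbol. The processing notes also name edgeR; the genome build, the strand setting and any removal of mouse reads are not given in the sources used here. The deposited TPM columns summed to 155595 to 165666 and thus to no fixed total, and for 9782 of 9783 genes with at least 50 counts the TPM was the count times a constant (tolerance 0.001), so library size was still in those values; levels between genes were compared on TPM and groups on counts. Of 19163 genes, 89 had no symbol, and 18690 were matched to a TPM line by symbol.

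Counts were tested with edgeR 4.0.16 in R 4.3.3 (TMM factors of 0.971 to 1.04, minimum count 10, minimum total 15, quasi-likelihood test, adjusted p under 0.05). CPM used TMM-scaled library sizes. Ratios of pooled counts have exact conditional 95% intervals; reads are not independent molecules, so intervals and floors cover counting error only. No RefSeq gene (ARS-UCD2.0) overlapped a measured member. The scripts were tested on simulated data, where the main fit recovered 181 of 200 changed genes and made 8 false calls. The changes were placed only in better-read genes, with the same dispersion for all genes. That test therefore did not cover genes as rare as H1-8 and KITLG.

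The members and the gene lists were chosen with earlier results of these data known. All members were named and, of each list, up to 6 called genes by size of change and the 3 further genes with the highest TPM (1 of them is not reported here); a gene such as DND1 can fall under more than 1 list. Alternatives were RLE or no factors, DESeq2 1.42.0, no or a stricter filter, a replicate block, limma 3.58.1 on log2(TPM + 1) or log2(TPM + 0.1), and each library left out; leaving out replicate 3 of both groups was chosen after seeing the data.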

Additional observations from a re-analysis of the deposited data

How the results depend on the processing

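The 3 germline genes MAEL, KIT and H1-8 were called in each of the fits with other scaling factors, with DESeq2, with no filter and without replicate 3 of both groups. Under the stricter filter, a minimum of 10 counts in each library, 1 was called, since MAEL and H1-8 were no longer tested. With limma on log2(TPM + 1) and a mean TPM of at least 1, only PRDM14 and KIT were tested and 0 were called (1 had an unadjusted p under 0.05), and the other limma fits called 2. With 1 library left out, 2 to 3 were called, and KIT was the gene lost. PRDM14 ranged from -0.045 (without MT-F7 replicate 1) to 0.34 with 1 library left out. Over all genes, 3016 calls became 1401 with the TPM minimum, 1914 to 3093 with 1 library left out (1914 without MC-F7 replicate 2), and 4242 without replicate 3 of both groups. Over the lists, 34 calls became 15 with the TPM minimum, where 7246 genes were tested, and 22 to 35 with 1 library left out (22 without MC-F7 replicate 2); the cause was not tested. Whether the replicate numbers pair the libraries cannot be settled from these values. Same-numbered libraries had correlations of their deviations from the group means of 0.134, 0.0445 and 0.417 over 13001 genes. Differently numbered libraries had correlations of -0.323 to 0.279. Replicate 3 of each group correlated best with the other, but replicate 1 of each group correlated best with replicate 2 of the other. With a replicate block, 4674 genes were called, 44 of the lists and the same 3 members. Depth limits what can be said of PIWIL2, DDX4, DAZL and KITLG, and of the size of the change in H1-8.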
